A study of Mus musculus with 12 samples.

Results

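The own rows of 6 genes in the count table are described here: the odorant-binding protein genes Obp2a and Obp1b, the lipocalin gene Lcn4, the BPI fold genes Bpifb3 and Bpifb6, and Dmbt1. They are 6 of the 55487 rows in the table, and all 6 had enough counts to be tested. They were named from a list drawn up with the contrast of KDP20 at day 10 against vehicle in view, so their values in that contrast are a description and carry no test. The 12 libraries were made from total RNA of nasal tissue, labelled as nasal epithelium, of male C57BL/6 mice aged 6 weeks. One group of 4 had been exposed to KDP20 and labelled day 10 (replicates 1, 2, 3 and 5), another group of 4 to KDP20 and labelled day 5 (replicates 5, 6, 7 and 8), and 4 had received PBS vehicle and were labelled day 10 (replicates 2, 4, 5 and 6). The labels do not explain KDP20, and the series title speaks of diesel particles. They do not say whether each library is a different mouse, so the spread between libraries may be partly technical.

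Odorant-binding proteins are small lipocalins that nasal glands secrete into the mucus. Lipocalins fold into a barrel that holds hydrophobic molecules, and in the nose they are known to bind odorants and pheromones. Lcn4 is known in mouse as a secretory protein of the vomeronasal glands. The BPI fold proteins share a lipid-binding fold with the bactericidal protein of neutrophils. Several are made by glands of the upper airway and mouth, and in rat a protein related to Bpifb3 was found in olfactory mucosa. Dmbt1 is a large secreted glycoprotein with scavenger receptor domains that coats mucosal surfaces and binds microbes.

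Of the genes, 4 lie on chromosome 2 (GRCm38, the assembly also called mm10). Obp2a lies at chr2:25700043-25703326 on the plus strand with 0.744 kb of exon, and Lcn4 at chr2:26667674-26671282 on the minus strand with 0.774 kb. Bpifb6 (chr2:153900388-153912795, 1.669 kb of exon) and Bpifb3 (chr2:153918230-153932996, 1.873 kb) are neighbours on the plus strand. Obp1b lies at chrX:78186777-78192292 on the plus strand (0.797 kb), and Dmbt1 at chr7:131032053-131121630 on the plus strand (7.057 kb). All 6 are protein-coding in GENCODE M21.

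The stretches just before the starts of the 5 genes with a RefSeq promoter entry are shown. The means of these genes were lower together at day 10 than in vehicle, the contrast that chose them. Each line gives 80 bases in the direction of the gene, ending just before the more upstream of the RefSeq and GENCODE starts, from RefSeq on GRCm38.p6, with the letters TATAA in capitals.
Obp2a, chr2:25699963-25700042, plus strand: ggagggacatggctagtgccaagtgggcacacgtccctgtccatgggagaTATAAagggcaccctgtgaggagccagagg
Obp1b, chrX:78186697-78186776, plus strand: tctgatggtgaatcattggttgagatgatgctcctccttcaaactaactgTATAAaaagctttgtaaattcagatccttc
Lcn4, chr2:26671283-26671362, minus strand: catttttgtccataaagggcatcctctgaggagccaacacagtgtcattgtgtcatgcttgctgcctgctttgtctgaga
Bpifb6, chr2:153900308-153900387, plus strand: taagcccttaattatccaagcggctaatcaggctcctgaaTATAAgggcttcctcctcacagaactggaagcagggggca
Bpifb3, chr2:153918118-153918197, plus strand: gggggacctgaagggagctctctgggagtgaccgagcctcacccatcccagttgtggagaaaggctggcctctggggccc
TATAA, the core of the TATA box, was searched on both strands of each RefSeq window, with no other motif beside it. It began 30 bases before the GENCODE start in Obp2a and Obp1b and 40 bases before it in Bpifb6. Bpifb3 has a second RefSeq start further down, inside the annotated gene, and TATAA began 28 bases before that one. Within 100 bases before a RefSeq start and on the gene's strand, 4 of the 6 windows of these 5 genes held it, against 7.48% of the 32851 windows in the table. The second start of Bpifb3 is among these 4. Whether the motif bears on the day 10 difference was not tested. In the whole windows of 300 bases, 24.9% held it on either strand and 17.5% on the gene's strand. No match was found in the window of Lcn4. Dmbt1 has no entry and is named only. Obp2a and its paralog Obp2b shared an unbroken run of 125 bases in their windows.

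Library depth ran from 1658420 to 3227138 counts, and 3 counts, taken as the floor of detection, corresponded to 0.839 to 2.06 CPM, counts scaled to a common library size with TMM factors. The row CT010467.2, which the annotation used here does not name, took 11.2%, 25.5%, 17.9% and 22.9% of counts in day 10 replicates 1, 2, 3 and 5, against 9.69% to 12.6% in day 5 libraries and 7.25% to 10.1% in vehicle libraries. Day 10 replicates 2, 3 and 5 therefore stand apart, and day 10 replicate 1 is inside the day 5 range. The strand setting of the counting is not given in the sources used here, and some own rows hold few counts beside a full row on the other strand. The airway cytochrome gene Cyp2f2 drew 46 to 331 counts per library, against 27656 to 84309 for Gm15883, which is annotated opposite it. Lower counts in an own row are therefore not in themselves less mRNA of that gene. No annotated exon lies opposite an exon of the 6 genes. No opposite row therefore shows which strand their counts come from, and the same limit holds for their own rows. The gene Fgfr2 overlaps Dmbt1 on the other strand without sharing exon bases, and its row held 111 counts in all. In bulk tissue, fewer cells of a type and less RNA per cell cannot be told apart.

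The lipocalin Obp2a had the highest own-row CPM of the 6 and was lower in every day 10 library than in any vehicle library. It had 279, 209, 192 and 35.4 CPM in day 10 replicates 1, 2, 3 and 5, against 439, 209, 421 and 734 CPM in day 5 replicates 5, 6, 7 and 8, and 442, 384, 315 and 725 CPM in vehicle replicates 2, 4, 5 and 6. Day 10 replicate 5 was far below the other day 10 libraries, and day 5 replicate 6 was at the level of day 10 replicate 2. Its mean was 179 ± 103 CPM at day 10, 451 ± 216 CPM at day 5 and 466 ± 180 CPM in vehicle (SD, n = 4 each), a log2 fold change of -1.38 for day 10 over vehicle (standard error, SE, 0.37).

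Obp1b, a lipocalin on the X chromosome, also had no overlap between day 10 and vehicle libraries, but by a narrow gap. Day 10 replicates 1, 2, 3 and 5 had 14.9, 16.5, 9.42 and 4.57 CPM, day 5 replicates 5, 6, 7 and 8 had 12.7, 17.3, 13.5 and 40.3 CPM, and vehicle replicates 2, 4, 5 and 6 had 27.4, 16.8, 25.4 and 42.1 CPM. Day 5 replicates 5, 6 and 7 were thus at the level of the upper day 10 libraries, and day 5 replicate 8 was near the highest vehicle library. The means were 11.3 ± 5.44 CPM at day 10, 20.98 ± 13.0 CPM at day 5 and 27.9 ± 10.53 CPM in vehicle, and the log2 fold change of day 10 over vehicle was -1.29 (SE 0.38). Of the 50-base windows of its transcripts, 73.5% also occur in the gene model Gm14743, so reads could be split or dropped between these rows. Gm14743 held 0 to 10 counts per library, against 8 to 93 for Obp1b.

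Lcn4 had day 10 values of 14.4, 4.12, 5.65 and 0.571 CPM in replicates 1, 2, 3 and 5. The last of these is a single count and lies below the floor of 1.71 CPM in that library. Day 5 replicates 5, 6, 7 and 8 had 20.4, 14.9, 26.2 and 29.2 CPM, and vehicle replicates 2, 4, 5 and 6 had 21.2, 11.7, 13.7 and 29.4 CPM. Day 10 replicate 1 lay among the vehicle libraries and just below the lowest day 5 library, while the other 3 day 10 libraries were below all libraries of both other groups. The means were 6.19 ± 5.88 CPM at day 10, 22.7 ± 6.34 CPM at day 5 and 19.0 ± 8.05 CPM in vehicle, a log2 fold change of -1.55 for day 10 over vehicle (SE 0.45).

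Of the BPI fold genes, Bpifb3 differed in that its low day 10 values did not rest on replicate 5. Day 10 replicates 1, 2, 3 and 5 had 6.17, 13.0, 6.90 and 6.28 CPM, day 5 replicates 5, 6, 7 and 8 had 16.6, 16.8, 31.8 and 41.8 CPM, and vehicle replicates 2, 4, 5 and 6 had 17.4, 30.5, 9.14 and 21.3 CPM. Day 10 did not overlap day 5, and it overlapped vehicle through day 10 replicate 2 and vehicle replicate 5. The means were 8.10 ± 3.31 CPM at day 10, 26.7 ± 12.3 CPM at day 5 and 19.6 ± 8.86 CPM in vehicle, with a log2 fold change of -1.32 for day 10 over vehicle (SE 0.38).

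Bpifb6, whose human protein is known from the endoplasmic reticulum, had the lowest mean own-row CPM of the 6 and was close to the floor at day 10. It had 3.60, 6.87, 2.51 and 1.14 CPM in day 10 replicates 1, 2, 3 and 5, where the last value is 2 counts and below the floor. Day 5 replicates 5, 6, 7 and 8 had 12.3, 5.77, 8.41 and 17.1 CPM, and vehicle replicates 2, 4, 5 and 6 had 14.5, 13.4, 5.08 and 12.2 CPM. Day 10 replicate 2 reached above the lowest library of both other groups, and the other day 10 libraries were below all of them. The means were 3.53 ± 2.44 CPM at day 10, 10.9 ± 4.94 CPM at day 5 and 11.3 ± 4.26 CPM in vehicle, a log2 fold change of -1.72 for day 10 over vehicle (SE 0.47).

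Dmbt1 had the smallest log2 fold change of the 6 for day 10 over vehicle, at -1.06 (SE 0.33). Day 10 replicates 1, 2, 3 and 5 had 60.7, 33.0, 47.7 and 13.1 CPM, day 5 replicates 5, 6, 7 and 8 had 78.6, 42.3, 69.6 and 142 CPM, and vehicle replicates 2, 4, 5 and 6 had 95.4, 78.6, 47.7 and 101 CPM. The groups overlapped, since day 10 replicate 1 was above vehicle replicate 5 and above day 5 replicate 6. The means were 38.6 ± 20.4 CPM at day 10, 83.0 ± 41.97 CPM at day 5 and 80.7 ± 23.97 CPM in vehicle.

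**Figure D1:**
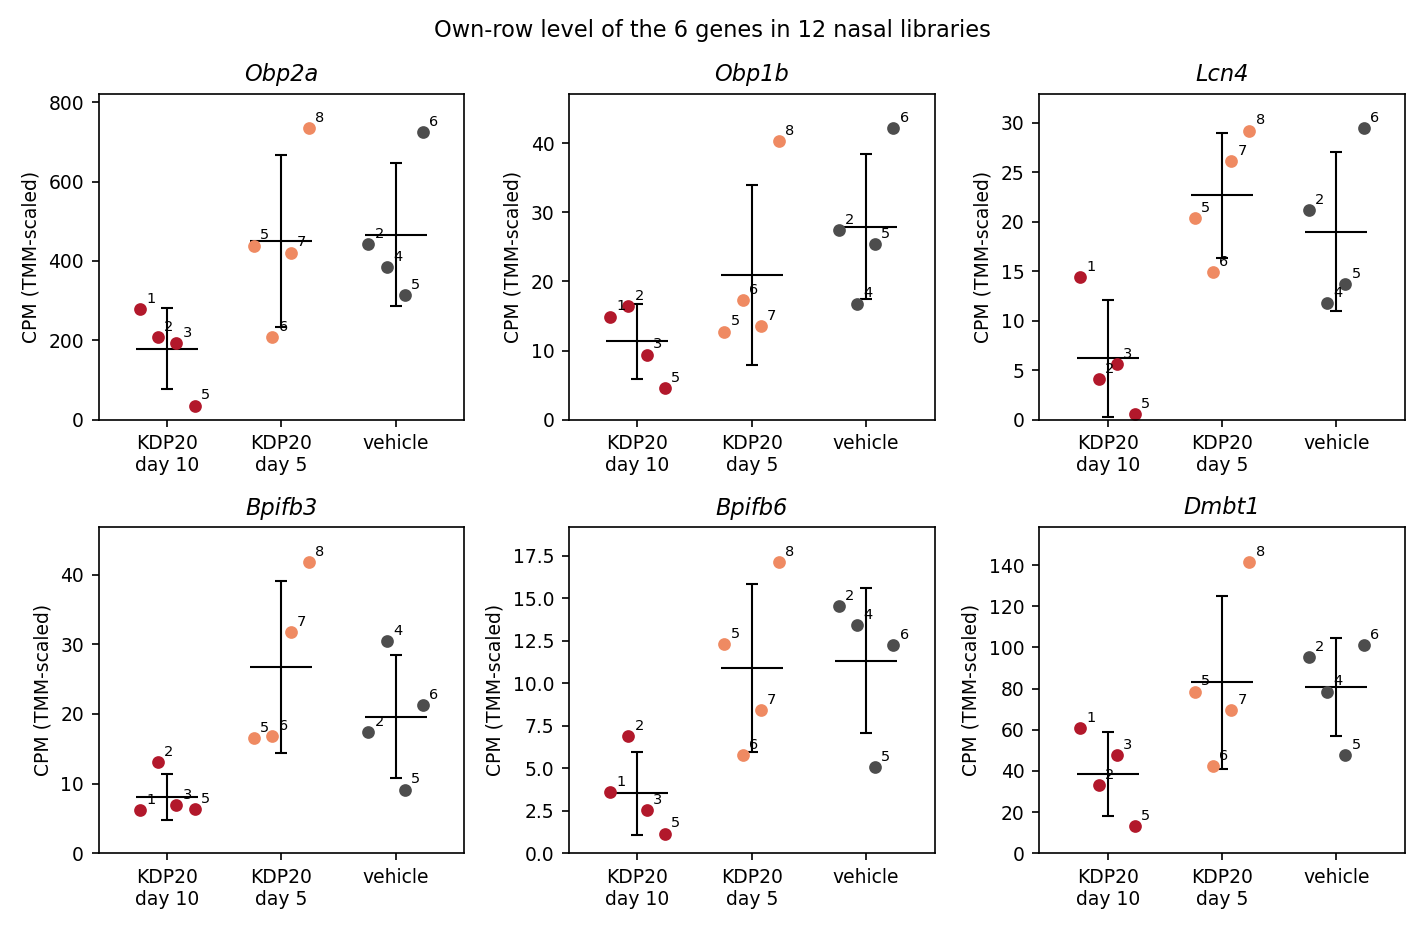
Level of the 6 genes by their own rows in CPM of the TMM-scaled library size, one point per library labelled with its replicate number, with the mean (bar) and SD (whiskers) of the 4 libraries of each group. Day 10 means lie between 3.53 CPM (Bpifb6) and 179 CPM (Obp2a), and replicate 5 is the lowest day 10 library in every panel except Bpifb3.

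Set per kilobase of exon, the own rows of the 6 genes kept 1 order of mean level at day 10 and in vehicle. At day 10 the means were 240 CPM per kb for Obp2a, 14.2 for Obp1b, 7.99 for Lcn4, 5.47 for Dmbt1, 4.33 for Bpifb3 and 2.11 for Bpifb6, against 627, 35.0, 24.6, 11.4, 10.46 and 6.78 CPM per kb in vehicle. At day 5 they were 606 CPM per kb for Obp2a, 29.3 for Lcn4, 26.3 for Obp1b, 14.3 for Bpifb3, 11.8 for Dmbt1 and 6.53 for Bpifb6. Obp2a stood above the other 5 genes in every library, since at day 10 it ran from 47.6 to 375 CPM per kb and Obp1b, the next, from 5.73 to 20.7. In vehicle libraries Lcn4 (15.2 to 38.0 CPM per kb) was also clear of Dmbt1 (6.76 to 14.3). All other neighbours in the 3 orders overlapped between libraries.

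Across all 13181 tested rows, edgeR's quasi-likelihood test with Benjamini-Hochberg adjustment called 3.15% lower and 3.93% higher at day 10 than in vehicle (7.08% in all). Of the 6 genes, 5 were among the lower calls, which is how they came to be listed, and nothing is read from that count. Dmbt1 was not called. Between day 10 and vehicle libraries, 2 of the 6 genes (Obp2a and Obp1b) had no overlap, where 5.01% of all tested rows were lower with no overlap. The median log2 fold change of the 6 was -1.35, and that of all tested rows was -0.01. The overlap and the median also come from the contrast that chose the genes, so nothing is read from them either.

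Day 10 replicate 5 was the lowest day 10 library for 5 of the 6 genes, and the size of the day 10 difference depended on it. Without it, the log2 fold changes of day 10 over vehicle were -1.04 for Obp2a, -1.02 for Obp1b, -1.16 for Lcn4, -1.22 for Bpifb3, -1.42 for Bpifb6 and -0.76 for Dmbt1. All 6 stayed below 0, and Bpifb3 moved the least. None of the 6 was then called by edgeR, while 95 of all rows were called, against 933 with it. Replicate 5 was not alone in this. Leaving out day 10 replicate 3 alone, vehicle replicate 2 alone or vehicle replicate 6 alone also gave 0 of the 6 called. Over all rows, 466, 337 and 429 were called in these fits, in that order. Without day 10 replicate 2, 2 of the 6 and 192 of all rows were called, and without vehicle replicate 4, 3 and 399. These counts come from the contrast that chose the genes, so they are a description and no test. Without day 10 replicate 1, the day 10 library with the smallest share of CT010467.2, all 6 were called, with log2 fold changes from -1.21 for Bpifb3 to -2.47 for Lcn4. Calls over all rows then came to 2684, so the count of the 6 moved with the whole table.

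With day 10 replicate 1 as the single day 10 library, which leaves out the 3 libraries with the large CT010467.2 shares, the log2 fold change was -1.66 for Bpifb6, close to the value over all libraries, and -1.69 for Bpifb3, farther from 0 than over all libraries. The values of Obp1b (-0.88), Obp2a (-0.74), Dmbt1 (-0.41) and Lcn4 (-0.38) were nearer to 0. In that fit the single library is assumed to vary like the others, so only the sizes of the differences are given. With the log2 share of CT010467.2 as a covariate, all 6 values moved toward or past 0, to -1.19 for Obp1b, -1.14 for Bpifb6, -0.92 for Bpifb3, -0.58 for Obp2a, -0.27 for Lcn4 and 0.16 for Dmbt1. In that fit 0 of 6 were called and 0 of 6 had an unadjusted p under 0.05. Of all tested rows 0 were called as well, so the missing calls are not particular to the 6. The share of CT010467.2 rises with the day 10 group, so a covariate takes out part of the group difference as well, and the share and the exposure cannot be told apart. Leaving that row out before scaling changed no log2 fold change of the 6 by more than 0.01.

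**Figure D2:**
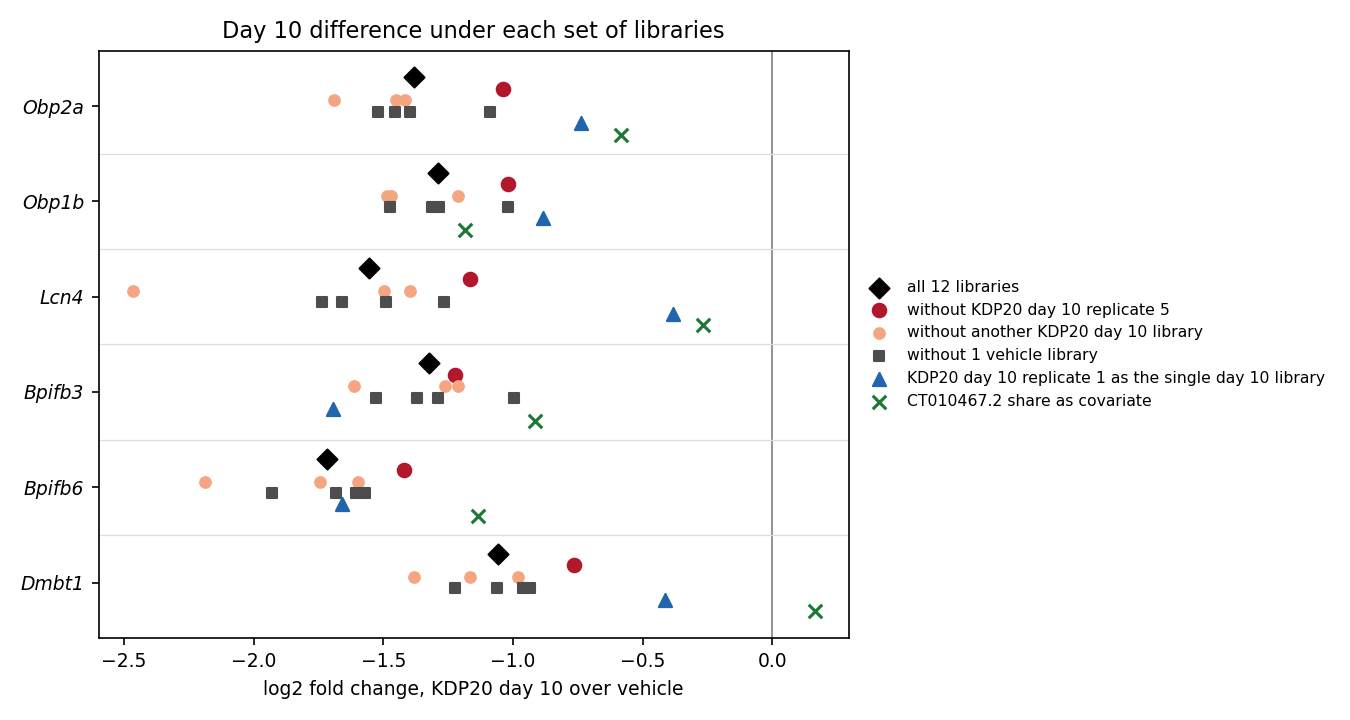
log2 fold change of day 10 over vehicle for each gene (x axis, edgeR) with all 12 libraries, without single day 10 or vehicle libraries, with day 10 replicate 1 as the single day 10 library, and with the share of CT010467.2 added as a covariate. Without replicate 5 the values run from -0.76 (Dmbt1) to -1.42 (Bpifb6), and the only point right of 0 is Dmbt1 with the covariate, at 0.16.

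None of the 6 genes passed the test between day 5 and vehicle libraries. Here edgeR called 0 of 6, where 0.660% of all tested rows were called (0.250% lower and 0.410% higher). No gene was lower with no overlap, as 5.80% of all tested rows were. None of the 6 reached an unadjusted p under 0.05, and DESeq2 and limma-voom also called 0. The log2 fold changes of day 5 over vehicle were 0.41 for Bpifb3 (95% interval -0.27 to 1.09), 0.26 for Lcn4 (-0.53 to 1.06), 0.04 for Dmbt1 (-0.61 to 0.68), -0.05 for Obp2a (-0.79 to 0.69), -0.07 for Bpifb6 (-0.90 to 0.75) and -0.41 for Obp1b (-1.13 to 0.32), with edgeR adjusted p from 0.586 to 0.972. Differences inside these intervals are not excluded with 4 libraries a group. The vehicle libraries are those of the contrast that chose the genes. They were labelled day 10, so exposure and day of collection differ together in this comparison. Day 5 replicate 8 was the highest day 5 library for all 6 genes, and without it Dmbt1 had a log2 fold change of -0.34 and Obp1b of -0.92, with no call and 1 of 6 (Obp1b) at an unadjusted p under 0.05. Obp1b also reached that unadjusted level with the replicate number as a block (-0.99), and Bpifb3 without vehicle replicate 4 (0.74, higher at day 5).

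The mean of each of the 6 genes was lower at day 10 than at day 5, and edgeR called 5 of the 6, where 5.49% of all tested rows were called lower and 4.66% higher (10.1% in all). The log2 fold changes of day 10 over day 5 were -1.82 for Lcn4, -1.74 for Bpifb3, -1.64 for Bpifb6, -1.33 for Obp2a, -1.09 for Dmbt1 and -0.88 for Obp1b, with SEs from 0.33 to 0.48. The edgeR adjusted p ran from 0.00592 (Bpifb3) to 0.0380 (Dmbt1) for the 5 called genes and was 0.162 for Obp1b. Lcn4 and Bpifb3 had no overlap between these groups, where 6.76% of all tested rows were lower with no overlap. This comparison uses the same day 10 libraries as the one that chose the genes and is no independent evidence for it. Without day 10 replicate 5, edgeR called 3 of the 6 (Obp2a, Lcn4 and Bpifb3) and 623 of all rows, against 1337 with it. Of the 6, 2 were called without day 10 replicate 3, without day 5 replicate 5 or without day 5 replicate 8. Over all rows, 677, 752 and 879 were called in these fits, in that order. With the CT010467.2 covariate, 0 of the 6 were called (1 of 6 at an unadjusted p under 0.05), and 2 of all tested rows were called.

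Within each group, some libraries were high or low for several of the 6 genes, but others were high for 1 gene and low for another. At day 10, replicate 5 was lowest for all but Bpifb3, with log2 CPM below the group mean by as much as -1.97 in Obp2a and -1.80 in Lcn4. Replicate 1 was highest for Obp2a, Lcn4 and Dmbt1 but lowest for Bpifb3, and replicate 2 was highest for Obp1b, Bpifb3 and Bpifb6. At day 5, replicate 8 was highest for all 6 and replicate 6 lowest for 4 (Obp2a, Lcn4, Bpifb6 and Dmbt1). Day 5 replicate 5 was lowest for Obp1b and Bpifb3. In vehicle, replicate 6 was highest for Obp2a, Obp1b, Lcn4 and Dmbt1, and replicate 5 lowest for Obp2a, Bpifb3, Bpifb6 and Dmbt1. Vehicle replicate 4 was highest for Bpifb3 but lowest for Obp1b and Lcn4. The 6 genes summed to 379, 282, 264 and 61.1 CPM in day 10 replicates 1, 2, 3 and 5, to 579, 306, 571 and 1004 CPM in day 5 replicates 5, 6, 7 and 8, and to 618, 535, 416 and 931 CPM in vehicle replicates 2, 4, 5 and 6. The sum in day 5 replicate 6 was inside the day 10 range, and Obp2a made up most of every sum.

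**Figure D3:**
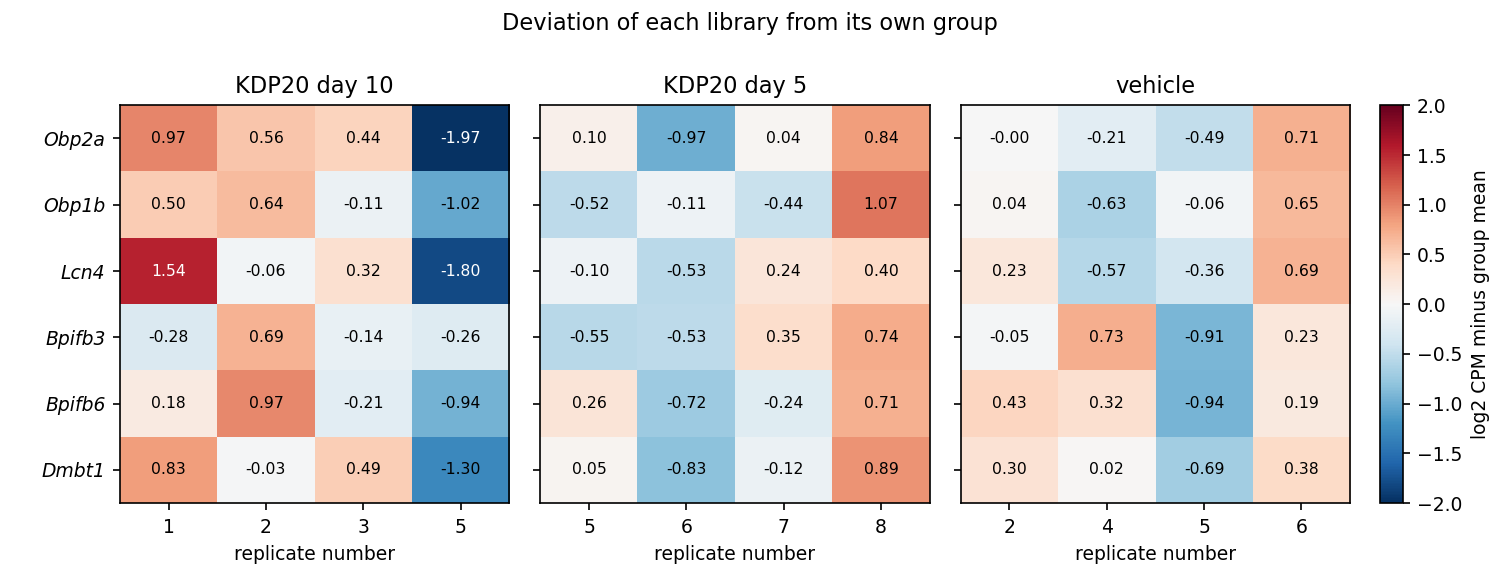
Deviation of each library's log2 CPM (prior count 2) from the mean of its own group, by gene and replicate number, with group panels for day 10, day 5 and vehicle. Day 10 replicate 5 is negative for all 6 genes, from -1.97 in Obp2a to -0.26 in Bpifb3, and day 5 replicate 8 is positive for all 6.

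Likeness of profile was measured as the root mean square difference of log2 CPM over the 12 libraries after subtracting each row's mean, so that a small value means a like profile. Of the 30 ordered pairs among the 6 genes, 17 placed the second gene among the 131 rows (1%) nearest to the first, and 11 did so without day 10 replicate 5. The genes were chosen for a difference between day 10 and vehicle, which enters these profiles, so part of their likeness comes from that choice and no 1% baseline applies. After subtracting group means in place of the row's mean, 7 did so. For Bpifb3, Obp2a was then at rank 11115 and Lcn4 at rank 12404 of the 13180 other tested rows. With the row's mean subtracted, Obp2a had Obp2b nearest (0.11), Dmbt1 at rank 2 and Lcn4 at rank 4 of these rows. For Bpifb3 and for Obp1b, 1 other member was among the nearest 131 rows. It was Bpifb6, at rank 6, for Bpifb3 and Dmbt1, at rank 47, for Obp1b, while Lcn4 was at rank 6409 for Bpifb3 and 3151 for Obp1b. Outside the 6 and unnamed gene models, the rows nearest to Obp2a were Obp2b (0.11), Mup4 (0.40) and Stom (0.45), and those nearest to Lcn4 were Obp2b (0.42), Pmch (0.49) and Spata9 (0.51). Nearest to Obp1b were Mup4 (0.38), Snrpf (0.44) and Lcn11 (0.45). For Bpifb6 they were the secretoglobin Scgb1c1 (0.35), the peroxiredoxin Prdx6 (0.39) and Lcn3 (0.40), for Bpifb3 they were Rcbtb1 (0.44), Slc17a3 (0.46) and Atp5b (0.47), and for Dmbt1 they were Stom (0.30), Lcn3 (0.31) and Obp2b (0.35).

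Obp2a and Obp2b lie close together on chromosome 2, and 11.7% of the 50-base windows of Obp2a transcripts also occur in Obp2b, so counts of the pair may be partly shared. Obp2b had 102 ± 65.6 CPM at day 10, 229 ± 114 CPM at day 5 and 233 ± 78.0 CPM in vehicle. Obp2a took 61.0%, 66.1%, 64.8% and 66.0% of the counts of the pair in day 10 replicates 1, 2, 3 and 5, with 95% Wilson intervals of 57.7% to 64.1% in replicate 1 and 55.9% to 74.7% in replicate 5, which had 94 counts of the pair. The mean share was 64.5% ± 2.40 at day 10, 66.4% ± 0.425 at day 5 and 66.5% ± 1.58 in vehicle. The rows of the pair therefore kept nearly 1 ratio while the level of Obp2a ran from 35.4 to 734 CPM between libraries. Such intervals cover counting error only.

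The rest of the lipocalin and BPI fold families was taken by symbol and not by value. The families themselves were those of the chosen genes, with earlier results of these data known. Of 34 other lipocalin rows (symbols of Obp, Lcn and Mup genes), 6 had enough counts to test and 21 were at 0 in every library, most of them major urinary protein genes. Of 13 other BPI fold rows, 6 were tested, and Bpi, Bpifc and Bpifb2 were at 0 in every library. At day 10 against vehicle, edgeR called 1 of these 12 lower and 0 higher, against 3.15% and 3.93% of all tested rows. The call was Mup4, a major urinary protein known from nasal mucosa, at 17.9 ± 11.2 CPM at day 10, 40.1 ± 23.6 CPM at day 5 and 49.3 ± 20.4 CPM in vehicle (log2 fold change of day 10 over vehicle -1.44, SE 0.41, edgeR adjusted p 0.0349). Day 10 replicate 5 held its lowest value (7 counts), and without that library its log2 fold change was -1.10 and it was not called. The call was also lost without day 10 replicate 2 (-1.57) or 3 (-1.35), without vehicle replicate 2 (-1.34), 5 (-1.45) or 6 (-1.22), and with DESeq2 (adjusted p 0.0837).

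The other 5 tested lipocalin rows were all lower in the mean at day 10 than in vehicle and none was called. They were Mup5 (-2.31, edgeR adjusted p 0.0538), Obp2b (-1.18, 0.0575), Lcn11 (-0.95, 0.0861), Lcn3 (-0.85, 0.128) and Obp1a (-0.27, 0.665). Obp1a, the partner of Obp1b in odorant-binding protein dimers, had 53.8 ± 32.6 CPM at day 10, 50.05 ± 22.6 CPM at day 5 and 64.6 ± 21.2 CPM in vehicle. The median over the 6 lipocalin rows was -1.06, that over the 6 BPI fold rows was -0.16, and that over all tested rows was -0.01. The lipocalin rows include Obp2b, whose counts may be partly shared with Obp2a. Among BPI fold rows, Bpifa1, a secreted protein abundant in upper airway mucus, had 21.6 ± 8.41 CPM at day 10, 41.1 ± 22.2 CPM at day 5 and 40.5 ± 8.17 CPM in vehicle (-0.92, edgeR adjusted p 0.0699). The remaining 5 ran from -0.61 for Bpifb4 to 0.49 for Bpifb1, so 4 of the 6 tested BPI fold rows were below 0 and 2 above. DESeq2 called Bpifa1 and no lipocalin row in this comparison, and limma-voom called Mup4 and Obp2b.

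For these 12 family rows, edgeR called 0 at day 5 against vehicle, with 0 at an unadjusted p under 0.05, 0 by DESeq2 and 0 by limma-voom, and log2 fold changes from -0.39 to 0.07. At day 10 against day 5 edgeR called 0 of 12, with 6 lower and 1 higher at an unadjusted p under 0.05, while DESeq2 called 3 lower and limma-voom 1. In the file, the gene model Gm14744, an X-linked row near Obp1b that RefSeq lists as an odorant-binding gene, ranked 10th in likeness to Obp2a and was singled out after its values were seen. It had 173 ± 87.4 CPM at day 10, 221 ± 113 CPM at day 5 and 282 ± 125 CPM in vehicle, with a log2 fold change of -0.71 for day 10 over vehicle and an edgeR adjusted p of 0.223. It shares no 50-base window with Obp1b transcripts.

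**Figure D4:**
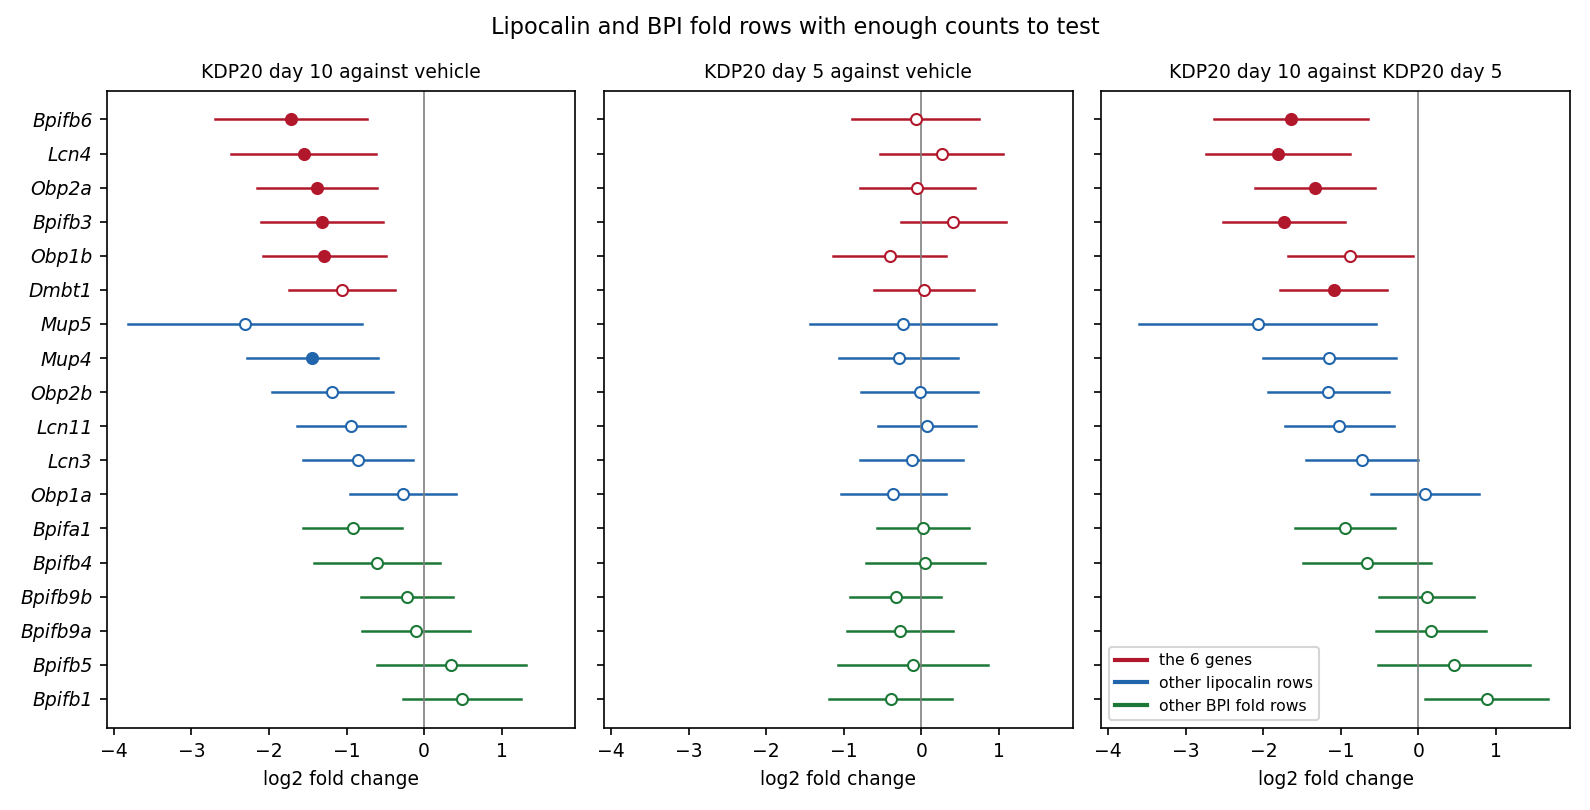
edgeR log2 fold changes (points) with 95% intervals (lines) of the 6 genes and of the 12 other tested lipocalin and BPI fold rows, in the 3 comparisons, with filled points for an adjusted p under 0.05. In the first panel the filled points of the 6 genes are the values they were chosen by, Mup4 is the single other filled point, and at day 5 against vehicle no point is filled.

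Of 20 genes listed for nasal glands and serous cells, 9 were tested, and at day 10 against vehicle edgeR called 1 lower and 0 higher. It was Scgb1c1, a secretoglobin of the olfactory mucosa, with 13.96 ± 5.75 CPM at day 10, 39.9 ± 24.4 CPM at day 5 and 46.2 ± 23.2 CPM in vehicle (-1.74, SE 0.42, edgeR adjusted p 0.0167). Without day 10 replicate 5 it had -1.48 and was not called, nor was it without vehicle replicate 2 (-1.64) or 4 (-1.51). With limma-voom 0 of the 9 were called, and with the CT010467.2 covariate Scgb1c1 had -0.37. Wfdc2, a secreted protease inhibitor, had -1.75 (adjusted p 0.0741), and the gland protein Ltf, lactoferrin, had 105 ± 48.5 CPM at day 10, 158 ± 55.1 CPM at day 5 and 149 ± 84.0 CPM in vehicle (-0.53, 0.349). The median of the 9 was -0.53. Their summed level over all 20 listed genes ran from 484 to 660 CPM at day 10, 423 to 633 CPM at day 5 and 479 to 901 CPM in vehicle, with day 10 replicate 5 lowest in its group and Smgc and Dcpp2 at 0 throughout. Among 9 tested genes of the secretory machinery (of 14), 0 were called at day 10 against vehicle, with 2 higher at an unadjusted p under 0.05, and the median was 0.03. Foxa1, a factor of gland and airway epithelium, had 47.9 ± 5.94 CPM at day 10, 30.8 ± 2.34 CPM at day 5 and 34.1 ± 3.51 CPM in vehicle (0.49, edgeR adjusted p 0.0910). At day 10 against day 5, edgeR called 1 of these 9 higher, Foxa1 (0.64, adjusted p 0.0259), and 0 lower. Of the gland and serous genes, Scgb1c1 was called lower (-1.51, edgeR adjusted p 0.0259) and 1 other gene higher. Of all tested rows, 5.49% were called lower and 4.66% higher in that comparison.

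Markers of other cells were summed and tested in the same way, and their part in the result was not tested. The values are of own rows and the strand setting is not given, so a low or 0 value need not mean less mRNA. Cyp2f2, with its full opposite row, is among the airway secretory cell markers. Wherever edgeR called 0 genes of a list at day 10 against vehicle, DESeq2 and limma-voom also called 0, except that DESeq2 called Bpifa1, counted above with its family, among the airway secretory cell markers. Of 9 tested markers of sustentacular cells and Bowman glands (of 13), 0 were called at day 10 against vehicle, with 3 lower at an unadjusted p under 0.05 and a median of -0.25. Their sums ran from 324 to 451 CPM at day 10, 265 to 436 CPM at day 5 and 317 to 442 CPM in vehicle, with Ugt2a1 at 0. Olfactory neuron markers (9 of 13 tested, 0 called and 0 at an unadjusted p under 0.05) had a median of -0.06 and sums of 303 to 402 CPM at day 10, 291 to 454 CPM at day 5 and 276 to 418 CPM in vehicle. Of 6 vomeronasal neuron markers, 2 were tested with 0 called and 0 at an unadjusted p under 0.05, and Trpc2, the channel that defines these neurons, was at 0 in every library, while their sums were 52.0 to 98.9 CPM at day 10, 63.1 to 73.1 CPM at day 5 and 52.3 to 89.2 CPM in vehicle. Whether vomeronasal tissue, a known source of Lcn4, was in each dissection is therefore not shown by these rows.

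Ciliated cell markers summed to 174 to 331 CPM at day 10, with replicate 5 lowest, against 313 to 330 CPM at day 5 and 325 to 353 CPM in vehicle, and edgeR called 1 of 7 tested lower (Ccdc39, -0.83, adjusted p 0.0221). That call was lost without day 10 replicate 2 (-0.65), 3 (-0.77) or 5 (-0.68) and without vehicle replicate 2 (-0.80), 4 (-0.81) or 6 (-0.84), and with day 10 replicate 1 as the single day 10 library the value was 0.01. Markers of basal and squamous cells summed to 75.1 to 167 CPM at day 10, with replicate 1 lowest, against 73.6 to 96.2 CPM at day 5 and 52.3 to 85.3 CPM in vehicle. Of 3 tested, 1 was called higher (Lor, 1.13, edgeR adjusted p 0.00824), which stayed called without any 1 library and had 0.15 with the CT010467.2 covariate, and Sprr3 was at 0. Airway secretory cell markers summed to 487 to 576 CPM at day 10, 416 to 514 CPM at day 5 and 470 to 746 CPM in vehicle, with 0 of 6 tested called and 1 lower at an unadjusted p under 0.05. Skeletal muscle markers summed to 309 to 374 CPM at day 10, 216 to 339 CPM at day 5 and 267 to 283 CPM in vehicle. Of 3 tested, edgeR called 1 higher (Atp2a1, 0.57, adjusted p 0.0385), and limma-voom called 0. The edgeR call was lost without any 1 of the vehicle libraries (0.49 to 0.62). It was also lost without day 10 replicate 2 (0.50), 3 (0.55) or 5 (0.48), and without day 5 replicate 5, 6 or 7 (0.57). Markers of neutrophils and blood summed to 125 to 185 CPM at day 10, 150 to 176 CPM at day 5 and 156 to 194 CPM in vehicle, with 0 of 3 tested called, 2 lower at an unadjusted p under 0.05, and S100a8 and Ly6g at 0. At day 10 against day 5, edgeR called Dnah11 (-0.86, adjusted p 0.0101) and Ccdc39 (-0.74, 0.0280) lower among the ciliated cell markers. Higher calls were Lor (0.79, 0.0267), Atp2a1 (0.95, 0.00204) and 1 airway secretory cell marker. Sustentacular and Bowman gland, olfactory neuron, vomeronasal neuron, and neutrophil and blood markers had 0 calls there.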

How the data were processed

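The authors' deposited table holds counts of reads per gene for 12 libraries. Per the submitters' processing notes, reads were checked with FastQC, trimmed with Trim Galore, aligned to mm10 with STAR and counted with HTSeq. Versions, annotation release, counting mode and strandedness are not given in these sources. A count on the wrong strand, or a read shared by near-identical genes, would move an own row without any change of its mRNA.

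Rows were filtered with filterByExpr (13181 of 55487 kept, 21025 were 0 throughout), TMM-scaled, and all 12 libraries were fitted together with a term for group (edgeR 4.0.16, quasi-likelihood test, R 4.3.3), with Benjamini-Hochberg adjustment over all tested rows at 0.05. The common biological coefficient of variation was 0.213. Standard errors were derived from each F statistic, and errors beside means are SDs over 4 libraries. Replicate pairs differed by 2.96 to 18.0 times the variance of counting alone over 18 pairs, so none was a repeat of one library. The fit was tested on simulated counts with known changes.

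Alternatives were other scalings and filters, DESeq2 1.42.0, limma-voom (limma 3.58.1), fits of only the 8 libraries compared, a block for the replicate number, leaving out each library, and CT010467.2 left out or as a covariate. A GC correction and day 10 replicate 1 as the single day 10 library were added after seeing the data. Positions and transcripts came from GENCODE M21 and promoters from RefSeq, read with Python 3.11.15.

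The members, families and lists were chosen with earlier results of these data known. The text names the 6 genes, tested family rows called in any comparison plus the 2 with the highest mean CPM per family, the 3 rows nearest each profile, up to 4 genes per list by smallest p, and overlapping rows. Other family rows are given by value because they are few.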

Additional observations from a re-analysis of the deposited data

Results flagged for a closer look

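In 2 of 63 groups of 4 libraries checked (the 6 genes, the 12 other tested family rows and 3 gene models like Obp1b), 1 library lay far from the other 3. Chance alone gives about 1 in 20 such groups. Obp1b had 40.3 CPM in day 5 replicate 8, against 12.7 to 17.3 CPM in the other day 5 libraries. Bpifb3 had 13.0 CPM in day 10 replicate 2, against 6.17 to 6.90 CPM in the other day 10 libraries.

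For 5 of the 6 genes, the day 10 effect and the day 5 effect, both taken against vehicle, differed by edgeR's quasi-likelihood test of the difference, which equals the day 10 against day 5 contrast. The differences were -1.33 on the log2 scale for Obp2a, -1.82 for Lcn4, -1.74 for Bpifb3, -1.64 for Bpifb6 and -1.09 for Dmbt1, with 4 libraries in each group. The 5 genes were lower in the day 10 mean than in the day 5 mean, and the same day 10 libraries had served to choose them.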

How the results depend on the processing

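Over 24 alternatives, the day 10 over vehicle log2 fold change of the 6 genes was below 0 in 143 of 144 values, and Dmbt1 with the CT010467.2 covariate gave 0.16. Of the 6, 5 were called lower, with 933 of all rows called in either direction. With limma-voom 3 were called (986 of all rows), with the 8 compared libraries alone 2 (423), and with GC correction 3 (410). The covariate gave 0 (0 of all rows), and leaving out 1 library gave 0 to 6 (95 to 2684 of all rows). For day 10 over day 5, 5 were called (1337 of all rows) and 144 of 144 values were below 0. DESeq2 (1554 of all rows), limma-voom (1217) and the 8 libraries alone (963) each called 3. The covariate gave 0 (2 of all rows), and leaving out 1 library gave 2 to 5 (623 to 2689 of all rows). For day 5 over vehicle no alternative called any, and Dmbt1 had -0.34 without day 5 replicate 8 and up to 0.25 leaving out another. Of the 12 family rows, 1 was called at day 10 against vehicle; with no filter 6 of 23 tested family rows were called, and limma-voom called 2, the covariate, GC correction and the single library 0, and leaving out 1 library 0 to 5. At day 10 against day 5 0 of 12 were called, and with no filter 5 of 23; the count was 3 with DESeq2, 1 with limma-voom, 1 with GC correction, and 0 to 3 leaving out 1 library. Leaving out 1 library called 0 family and 0 member rows at day 5 against vehicle. Among the 30 ordered pairs of like profiles, 17 became 11 without day 10 replicate 5, and 7 when centred on group means. Among list genes, the covariate gave 0.16 for Ccdc39 and -0.010 for Atp2a1 at day 10 over vehicle, and 0.22 for Scgb1c1 and 0.26 for Ccdc39 at day 5 over vehicle. The single library gave 0.011 for Ccdc39 and -0.094 for Atp2a1 over vehicle, and 0.097 for Ccdc39 over day 5. The causes were not tested. Counts limit Lcn4 and Bpifb6 most, with 1 and 2 counts in day 10 replicate 5.

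Replicate numbers recur between groups in 5 pairs of libraries, fewer than 3 pairs in any comparison. Deviations from group means correlated at -0.09 to 0.12 within these pairs, with 1 pair over 0.1, so the pairing rests on the number alone. With the replicate number as a block, edgeR called 4 of the 6 genes lower at day 10 against vehicle, 2 at day 10 against day 5 and 0 at day 5 against vehicle, and 2, 0 and 0 of the family rows. Over all rows, 1701, 958 and 33 were called in these comparisons, in that order. Lor had -0.024 at day 5 over vehicle with the block.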
